A study of Mus musculus with 22 samples.

Results

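Potassium channel genes were taken as all protein-coding genes whose symbol starts with Kcn, which gave 94 of the 24911 genes in the files and of the 20674 protein-coding genes. A further 4 antisense RNA genes with such names were left out. Their RNA was profiled by poly(A) sequencing in 22 mouse libraries, with 1 library for every group. The 7 primary B-cell libraries were splenic B cells and 6 cultures activated with aBCD180, aCD40+IL4, LPS (lipopolysaccharide) alone, or LPS plus a-d-dextran, IL21 or IL4. Mature B cells came, per the labels, from C57BL/6J spleens by negative selection. The 9 CD4 T-cell libraries were CD4+ T cells, activated non-Tfh cells (CD4+CD44+CXCR5-PD1-CD25-), Tfh cells (follicular helper cells) and Tfr cells (follicular regulatory cells, CD4+CD44+CXCR5+PD1+CD25+), each unmarked and MUT, and ConA-activated CD4+ T cells (ConA is the mitogen concanavalin A). The labels used here do not say what MUT stands for, and give no strain, age or sex for the T cells and tissues. The others were CH12 (1 clone, bc5, of a mouse B-lymphoma line), back skin, basophils, and 3 brain regions, namely sensorimotor cortex, putamen and medulla oblongata.

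Potassium channels let potassium leave or enter a cell and so set its membrane voltage. Voltage-gated genes (Kcna to Kcnd, Kcnq and Kcnh) repolarise excitable cells, inward rectifiers (Kcnj) and tandem-pore channels (Kcnk) hold the resting voltage, and Kcnma, Kcnt and Kcnn channels open with calcium or sodium. Kcnf, Kcng, Kcns and Kcnv encode silent subunits that modify other pores, and Kcnab, Kcne, Kcnip and Kcnmb encode auxiliary proteins. In lymphocytes the channels of Kcna3 and Kcnn4 keep the membrane negative, which sustains calcium entry after antigen receptor signalling. In brain, Kcna1 and Kcna2 act in axons, Kcnc genes in fast-firing neurons, Kcnq3 in the M-current, and Kcnj10 in potassium uptake by astrocytes.

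Levels are given as TPM (the share of transcripts, scaled per transcript length), which can be compared between genes. Libraries held 30.8 to 147.9 M expected counts, with a median of 46.15 M. The labelled tissues had their markers: the medulla had 130 TPM of Slc6a5, the glycine transporter gene of hindbrain neurons, against at most 5.69 in the other regions, the putamen 195 TPM of the dopamine receptor gene Drd1, and the basophils 12997 TPM of Mcpt8. Ddx3y, a Y-linked gene, lay between 27.3 and 104 TPM in 7 libraries (LPS+IL21 B, splenic B, basophils, putamen, medulla, ConA and back skin) and at most 0.11 in the other 15. Nothing in the labels says which libraries are separate animals or cultures, so a p-value here reflects the spread among these samples alone, and that spread may be technical. Tests used edgeR, with p-values adjusted over all genes and a threshold of 0.05, and log2 fold changes stand with ± SE. Exons of 26 members overlap those of another gene, among them Kcna6 (2355 bases), Kcnj3 (1621), Kcnma1 (1016), Kcnk2 (604), Kcnj6 (380) and Kcnj15 (333). Those of Kcnab2 overlap a gene on the same strand by 125 bases, which strand would not separate. The counts of all 26 are uncertain because it is not given in the sources used here whether counting used strand.

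The 150 bases before the RefSeq start of 5 members (GRCm38.p6, 5′ to 3′ on the gene's strand, CpG in capitals) are shown for the lymphocyte pair Kcna3 and Kcnn4, and for 3 members named in later comparisons: Kcnj10, high in brain, Kcnj2, high in putamen and basophils, and Kcnk16, high in back skin.
Kcna3: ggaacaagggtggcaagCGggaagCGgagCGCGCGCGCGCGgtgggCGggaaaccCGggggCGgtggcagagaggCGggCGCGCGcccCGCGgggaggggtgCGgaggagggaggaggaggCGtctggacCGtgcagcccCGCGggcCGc
Kcnn4: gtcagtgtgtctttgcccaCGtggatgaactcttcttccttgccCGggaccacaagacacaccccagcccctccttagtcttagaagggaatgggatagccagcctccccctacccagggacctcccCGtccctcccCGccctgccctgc
Kcnj10: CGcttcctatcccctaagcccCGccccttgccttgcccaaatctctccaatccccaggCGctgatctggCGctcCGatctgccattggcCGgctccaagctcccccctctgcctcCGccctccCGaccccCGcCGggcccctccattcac
Kcnj2: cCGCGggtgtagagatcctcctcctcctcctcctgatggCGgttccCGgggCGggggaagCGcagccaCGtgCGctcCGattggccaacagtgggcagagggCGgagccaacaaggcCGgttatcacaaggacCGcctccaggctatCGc
Kcnk16: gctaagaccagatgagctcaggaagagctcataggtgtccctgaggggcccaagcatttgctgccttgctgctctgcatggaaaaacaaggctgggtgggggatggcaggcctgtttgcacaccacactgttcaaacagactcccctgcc
The Kcna3 window (chr3:107036012-107036161, + strand) held 23 CpG, and 4.36% of all protein-coding promoters held as many or more. The Kcnn4 window (chr7:24370113-24370262, + strand) held 4, the Kcnj10 window (chr1:172341060-172341209, + strand) 10 and the Kcnj2 window (chr11:111066014-111066163, + strand) 13. The Kcnk16 window (chr14:20269270-20269419, - strand) held none. The median was 6 over the 69 members with an entry and 7 over all protein-coding promoters. None of the 5 windows overlapped a GENCODE exon, and the Kcnn4 window lay wholly inside the RefSeq span of its own gene.

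Most potassium channel genes had their highest level in brain, a share that was not counted over all genes. Some of them were high elsewhere too, such as Kcnab2, with 273 TPM in non-Tfh cells. Of the 94 members, 71 had their highest level in a brain library, 17 elsewhere, and 6 (Kcna10, Kcne2, Kcnj5, Kcnk15, Kcnk18 and Kcnv2) were under 1 TPM everywhere. At least 1 TPM was reached by 78 members in some brain library and by 69 in all 3 regions, and 43 had 5 TPM or more in all 3. In the 16 primary lymphocyte libraries 33 members reached 1 TPM and 16 reached 5 TPM somewhere. In single libraries 71 to 76 members reached 1 TPM in brain, beside 64.8% to 67.9% of all protein-coding genes, and 9 to 21 in the lymphocyte libraries, beside 49.8% to 55.2%. Only Kcnab2 and Kcna3 had 5 TPM or more in each. Summed over members, potassium channel RNA came to 3349 to 4091 TPM in brain, 571 to 760 in the CD4 T libraries other than ConA, 365 in ConA, 340 in basophils, 140 to 255 in primary B cells and 185 in skin. In lymphocytes Kcna3, Kcnn4 and Kcnab2 together made 50.1% (aCD40+IL4 B) to 92.2% (non-Tfh) of this pool, against 9.0% to 12.9% in brain and 3.0% in skin. These 3 are leading genes of lymphocytes, so their lower share elsewhere does not show that other pools were broader. In skin Kcnk6 (29.0 TPM), Kcnk16 (20.7) and Kcne1 (18.0) led, and in putamen Kcnab1 (415), Kcnip2 (399) and Kcnab2 (297). Kcnab2, which encodes a cytoplasmic beta subunit of Kcna channels, was the member with the highest TPM in basophils (172), CH12 (81.5), sensorimotor cortex (501) and 6 of the 7 primary B libraries.

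**Figure D1:**
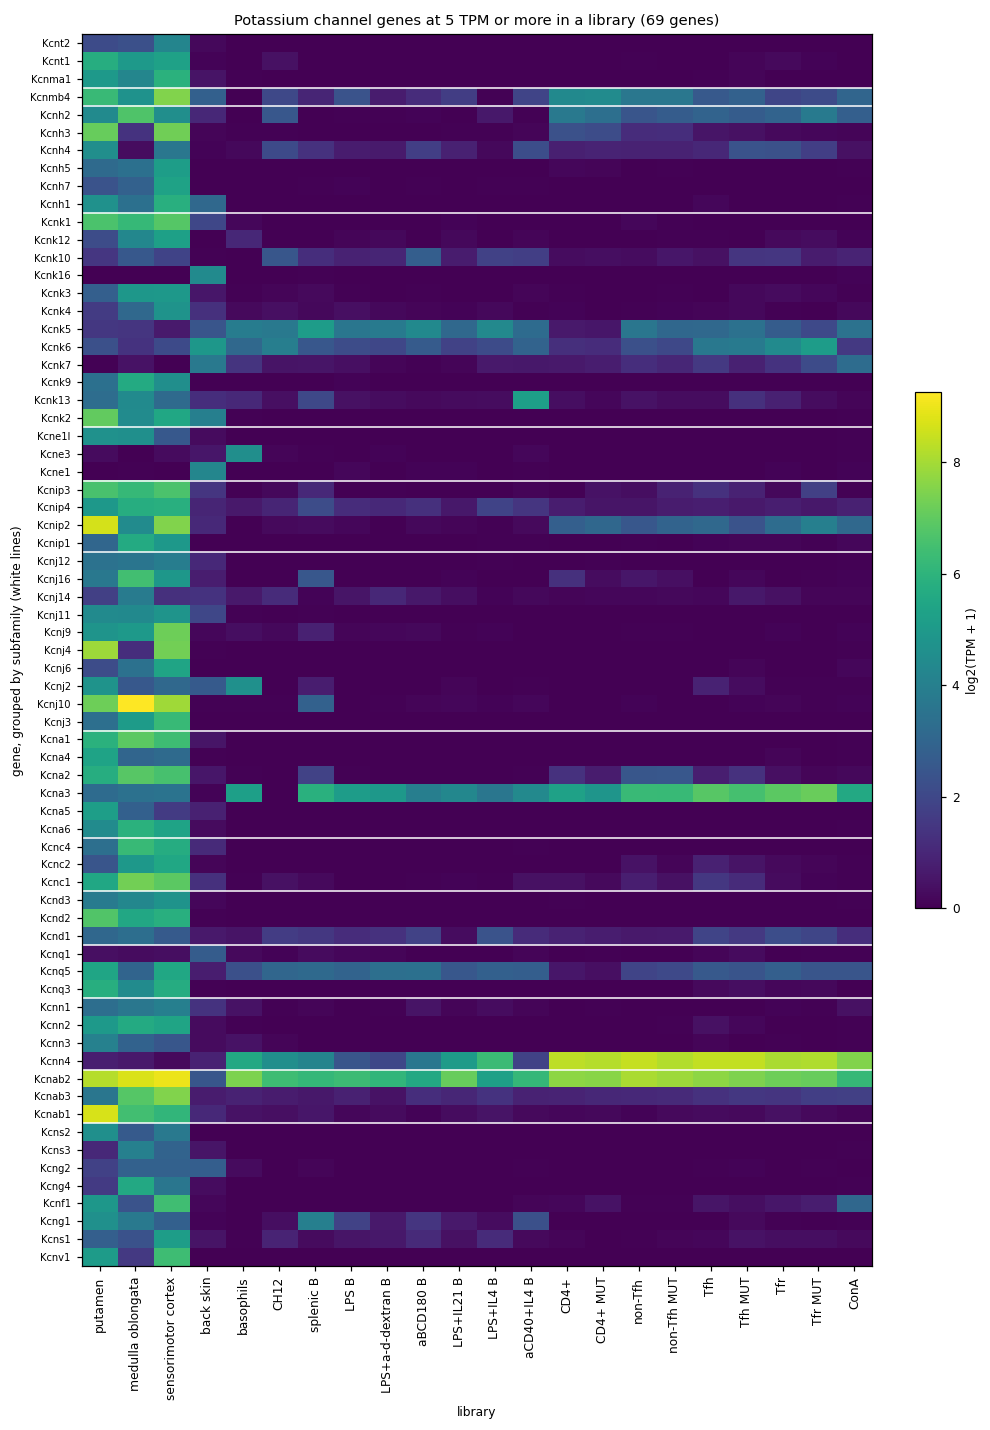
Levels of 69 members with 5 TPM or more in some library, as log2(TPM + 1) in colour, with genes as rows grouped by subfamily and the 22 libraries as columns. The 3 brain columns are filled through nearly all subfamilies, while the lymphocyte columns are bright mainly at Kcna3, Kcnn4 and Kcnab2.

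Kcna3, the voltage-gated channel gene of T cells (chr3:107036162-107038129, mm10), had its highest TPM in follicular T cells. It stood at 121 TPM in Tfr, 139 in Tfr MUT, 114 in Tfh and 91.7 in Tfh MUT. The non-Tfh libraries had 76.4 and 74.4 (MUT), ConA 46.9, and the CD4+ libraries 38.4 and 27.3 (MUT). Among B cells it was 58.2 in splenic B and 33.4 in LPS, 29.7 in LPS+a-d-dextran, 19.6 in aCD40+IL4, 18.3 in LPS+IL21, 14.7 in aBCD180 and 11.4 in LPS+IL4 cultures. Splenic B cells were thus above all 6 activated cultures, the highest of which lay within 1 log2 unit of them. Basophils had 36.4 TPM, and the brain regions 8.38 (putamen), 9.87 (medulla) and 10.7 (cortex). The 95% counting intervals of the regions were 7.44 to 9.41, 8.89 to 10.9 and 9.66 to 11.7. That of medulla overlapped both others, while those of putamen and cortex did not overlap. Back skin had 0.06 TPM from 3 counts, and CH12 had no count, which allows up to 0.0482 TPM (3 counts, counting error only). Of the 9 libraries with the highest Kcna3, 8 were CD4 T libraries by TPM and 7 by CPM scaled with TMM factors. On the latter scale Tfr MUT (121.5), Tfr (88.5) and Tfh (87.7) still led, but Tfh MUT (68.7) lay below ConA (71.7) and both non-Tfh libraries (69.8 and 68.9).

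Kcnn4, the calcium-activated channel gene of lymphocytes (chr7:24369826-24385212, mm10), separated the lineages more sharply. All 9 CD4 T libraries were above all others on both scales. Their levels were 323 and 297 (MUT) TPM in CD4+, 351 and 288 (MUT) in non-Tfh, 340 and 338 (MUT) in Tfh, 270 and 285 (MUT) in Tfr, and 180 in ConA. Neighbours in this order lay close together apart from ConA, whose place depended on the scale: it was the lowest CD4 T library by TPM and had 275 TMM-scaled CPM, inside the range of 197 to 340 of the other 8. Among B cells the LPS+IL4 culture led with 78.4 TPM, followed by LPS+IL21 (32.6), splenic B (16.97), aBCD180 (11.8), LPS (4.42), LPS+a-d-dextran (2.88) and aCD40+IL4 (2.52). Basophils had 47.2 TPM and CH12 22.9. Brain had 0.71 (putamen), 0.56 (medulla) and 0.18 (cortex), and skin 0.87. The ratio of Kcnn4 to Kcna3 TPM was 8.41 and 10.9 in the CD4+ libraries, 2.04 to 4.597 in the other CD4 T libraries, 0.097 to 0.804 in 5 B libraries, 1.78 in LPS+IL21 and 6.87 in LPS+IL4 B cells.

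**Figure D2:**
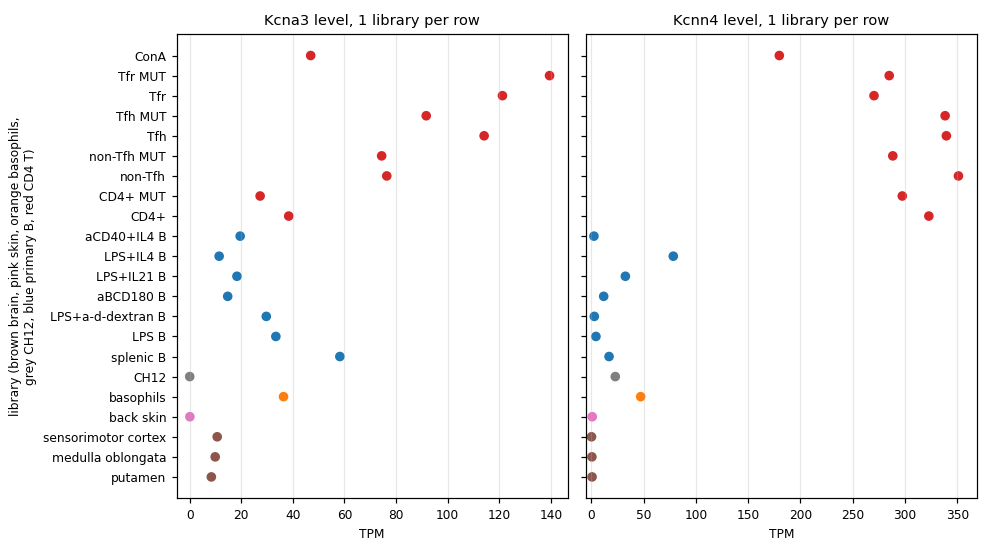
TPM of Kcna3 (left) and Kcnn4 (right) on the horizontal axis, with 1 library per row and colours by kind of sample. By TPM, Kcna3 is highest in the Tfr and Tfh libraries, and Kcnn4 lies between 180 and 351 TPM in CD4 T libraries and at most 78.4 elsewhere.

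The 4 CD4 T populations were compared in 1 fit over their 8 libraries, in which the unmarked and the MUT library stand for a population (n = 2 per side). It tested 40 members. Against CD4+ cells, 9 were higher and 2 lower in Tfh, beside 15.3% and 11.2% of all 13064 genes tested, so the share of members called (27.5%) lay near that of all genes (26.4%). Their median log2 fold change was 1.27, against 0.03 for all genes. In Tfr cells 8 were higher and 4 lower (16.8% and 13.6% of all genes, and 30.0% of members against 30.4%), with medians of 1.03 and 0.02. In non-Tfh cells 4 were higher and 1 lower (3.23% and 0.62% of all genes, and 12.5% of members against 3.9%), with medians of 0.22 and -0.01. These 3 comparisons share the CD4+ libraries.

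Kcna3 rose by 1.37 ± 0.21 in Tfh (103 ± 15.9 against 32.8 ± 7.83 TPM, SD, n = 2 per side, adjusted p = 0.00783) and by 1.71 ± 0.22 in Tfr (130 ± 12.9 TPM, adjusted p = 0.00336). The non-Tfh difference of 1.08 ± 0.21 missed the threshold (adjusted p = 0.0534), and so did that between Tfh and non-Tfh (0.29 ± 0.21, adjusted p = 0.409). Without CD4+ MUT the Tfh call was lost (1.17, adjusted p = 0.059). Kcnn4 was called in none of these comparisons, with log2 fold changes of -0.16 ± 0.16 in Tfh, -0.08 ± 0.16 in non-Tfh and -0.46 ± 0.16 in Tfr (adjusted p = 0.491, 0.931 and 0.0799). Its mean TPM in Tfh was above that in CD4+ (339 against 310). On the TPM scale the median of all tested genes lay 0.24 log2 units higher in Tfh than in CD4+, 0.25 higher in Tfr, 0.08 in non-Tfh, and 0.13 higher in Tfh than in non-Tfh, so TPM differences of that size are shared by all genes. Kcnab2 fell in Tfr by 0.80 on the log2 scale (141 ± 8.99 against 200 ± 9.41 TPM, adjusted p = 0.00834).

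Of the tandem-pore genes, Kcnk5 and Kcnk6 rose. Kcnk5, which encodes an acid- and volume-sensitive background channel, stood at 0.56 and 0.47 TPM in the CD4+ libraries and at 11.5 and 7.55 in non-Tfh, 7.64 and 9.89 in Tfh, and 5.48 and 3.13 in Tfr (MUT second). All 6 values were above both CD4+ values. The log2 fold changes were 4.06 ± 0.35, 3.83 ± 0.34 and 2.72 ± 0.33, with adjusted p = 0.0056, 0.00146 and 0.00297. Kcnk6, a related gene, went from 1.39 and 1.24 TPM in CD4+ and 3.85 and 3.05 in non-Tfh to 12.1 and 12.8 in Tfh and 20.7 and 34.0 in Tfr. It rose by 2.95 ± 0.33 in Tfh and 4.07 ± 0.35 in Tfr against CD4+ (adjusted p = 0.00293 and 0.00106), and by 1.68 ± 0.32 in Tfh against non-Tfh (adjusted p = 0.0366).

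Of the voltage-gated members, Kcnq5, a Kcnq channel gene also used in brain, rose from 0.47 and 0.31 TPM in CD4+ to 2.70 and 3.09 in non-Tfh, 4.96 and 4.34 in Tfh, and 5.89 and 4.42 in Tfr. Its log2 fold changes were 2.79 ± 0.25, 3.30 ± 0.25 and 3.42 ± 0.25 (adjusted p = 0.00628, 0.00101 and 0.000738). Kcnd1, an A-type channel gene, rose by 1.29 ± 0.32 in Tfh and 1.76 ± 0.32 in Tfr against CD4+, and by 1.83 ± 0.32 in Tfh against non-Tfh (adjusted p = 0.0309, 0.0107 and 0.0302), with all levels at most 3.57 TPM. Kcnc1, a fast-channel gene, rose in Tfh by 2.48 ± 0.41 at 1.86 and 1.18 TPM. Kcnh3, otherwise a forebrain gene, went the other way: 3.93 and 3.46 TPM in CD4+, 1.25 and 1.30 in non-Tfh, 0.43 and 0.35 in Tfh, and 0.17 and 0.13 in Tfr. It fell in all 3, with log2 fold changes of -3.53 ± 0.34 in Tfh, -1.65 ± 0.31 in non-Tfh and -4.97 ± 0.37 in Tfr (adjusted p = 0.00176, 0.0471 and 0.000735), and was lower in Tfh than in non-Tfh by -1.88 ± 0.33 (adjusted p = 0.0291). Kcna2 fell by 2.84 in Tfr (0.19 ± 0.14 against 1.07 ± 0.62 TPM).

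Kcnmb4, the auxiliary subunit of large-conductance calcium-activated channels that is best known from neurons, showed a like order: 19.9 and 20.9 TPM in CD4+, 11.7 and 11.6 in non-Tfh, 4.94 and 6.39 in Tfh, and 2.78 and 3.29 in Tfr. It fell in both follicular populations, with log2 fold changes of -2.14 ± 0.28 in Tfh and -3.05 ± 0.29 in Tfr (adjusted p = 0.00422 and 0.00133). Its pore-forming partner Kcnma1 had at most 0.08 TPM in these 8 libraries. Exons of Kcnmb4 overlap 2 antisense genes by 355 and 693 bases on the opposite strand, so its counts are uncertain. Among inward rectifiers, Kcnj8, the pore of some ATP-sensitive channels, rose in non-Tfh (3.02 and 2.83 against 0.15 and 0.02 TPM, log2 fold change 5.37 ± 0.83, adjusted p = 0.0285). Kcnj15 rose in Tfr (1.29 and 2.48 against 0.01 and 0.02 TPM, 6.76 ± 0.97, adjusted p = 0.005). The remaining calls were of members under 1 TPM on both sides: Kcnc2 (higher in all 3 populations), Kcnj2 and Kcnq3 (Tfh) and Kcnt1 (Tfr). Tfh and non-Tfh cells differed at 3 members, with Kcnd1 and Kcnk6 higher and Kcnh3 lower (4.03% and 2.56% of all genes).

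RNA of 4 B-cell marker genes, among them Cd79a and Ms4a1, summed to 484 TPM in Tfh MUT and 330 in Tfr, against 137 in Tfh, 94.3 in Tfr MUT and 61.0 to 79.7 in the non-Tfh and CD4+ libraries, and all 4 were at least 1 TPM in the Tfh, non-Tfh and Tfr libraries. Without Tfh MUT and Tfr all 25 calls named here were kept, and the counts were 18 (Tfh), 13 (non-Tfh), 22 (Tfr) and 13 (Tfh against non-Tfh). Left out 1 at a time, libraries moved the counts strongly. Tfh against CD4+ gave 18 without Tfh, and 5 without either CD4+ library. Tfr against CD4+ gave 19 without Tfh, 20 without Tfh MUT, 6 without CD4+ and 7 without CD4+ MUT. Non-Tfh against CD4+ gave 0 without any 1 of its own 4 libraries, and DESeq2 called 10. Tfh against non-Tfh gave 14 without Tfh, 5 without Tfh MUT, and 0 without any 1 of the non-Tfh or CD4+ libraries. Of the genes above, those lost in some of these fits were Kcnk5 and Kcnq5 in non-Tfh (adjusted p up to 0.0845 and 0.0641), Kcnmb4 and Kcnc1 in Tfh (0.0655 and 0.122), Kcnab2, Kcnj15 and Kcna2 in Tfr (0.0988, 0.0634 and 0.176), Kcnj8 in non-Tfh (0.196), Kcnk6 in Tfh against non-Tfh (0.303), and Kcnd1 and Kcnh3 in several comparisons (0.244 and 0.513).

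**Figure D3:**
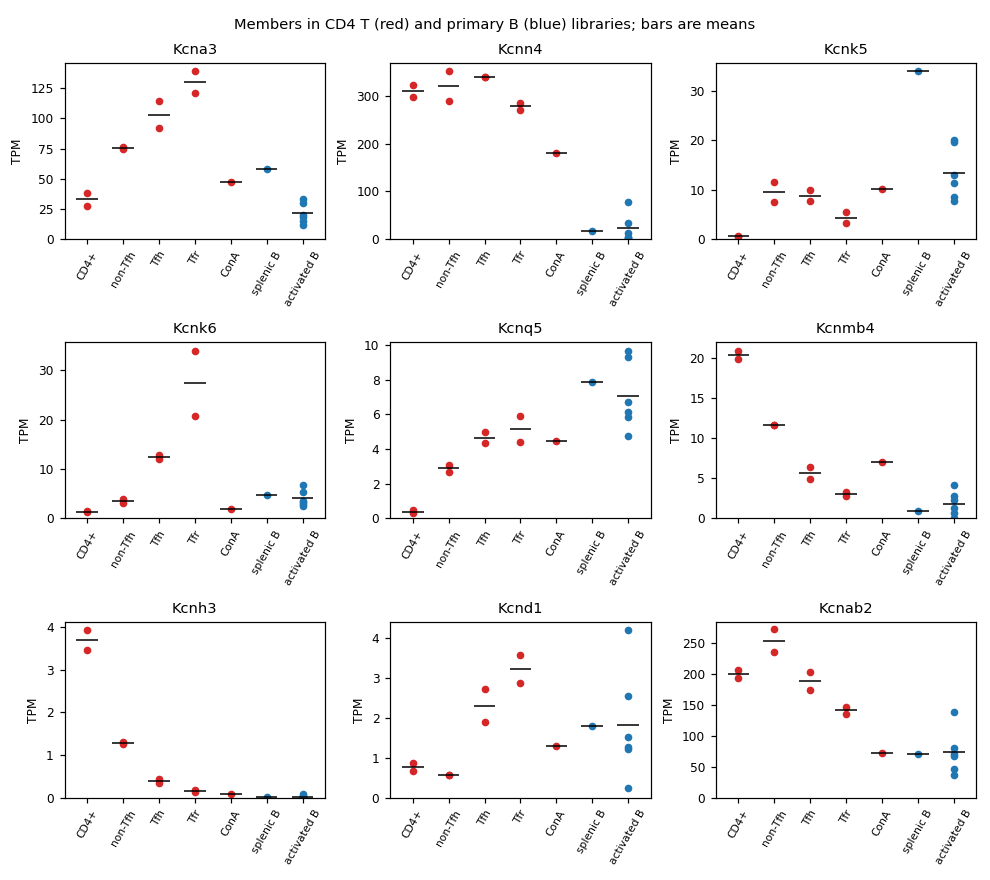
TPM of 9 members in the CD4 T populations (red) and primary B cells (blue), with 1 point per library and a bar at the mean. Kcnk5 is near 0.5 TPM in CD4+ cells and 3.13 to 11.5 in the sorted populations, while Kcnh3 and Kcnmb4 are highest in CD4+ cells.

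The MUT label was tested over 4 libraries against 4. No member was called by edgeR, beside 0.0% of all genes; 2 had an unadjusted p under 0.05 (Kcnc1 and Kcnc2, log2 fold changes of -1.11 and -1.23), and DESeq2 and limma called 0. Kcna3 had 83.2 ± 46.4 TPM in MUT and 87.5 ± 38.2 in unmarked libraries (SD, n = 4 each), with a log2 fold change of -0.13 ± 0.15. For Kcnn4 the values were 302 ± 24.7 and 321 ± 35.7 TPM, with -0.05 ± 0.11.

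Primary B cells (n = 7) differed from CD4 T cells (n = 9) at most tested members. Of 30 tested, 8 were higher and 11 lower in B cells, beside 23.9% and 22.5% of all 12437 genes, and the median log2 fold change was -0.46 against 0.01. The spread in this comparison holds differences of state as well as error. Kcnn4 was lower in B cells by -3.64 ± 0.67 (21.4 ± 27.3 against 297 ± 52.2 TPM, adjusted p = 0.000512). It was 1 of 3 members whose B values all lay below the CD4 T values (5.34% of genes), and 1 member, Kcng1, had all B values above (2.92%). Kcna3 was lower by -1.53 ± 0.33 (26.5 ± 16.04 against 81.1 ± 39.0 TPM, adjusted p = 0.00181) and Kcnab2 by -1.22 ± 0.28 (73.3 ± 32.4 against 182 ± 59.0, adjusted p = 0.00234), and for both the groups overlapped.

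A pair of genes known from heart and brain marked the T-cell side. Kcnh2, whose channel repolarises the heart, had 4.41 to 12.7 TPM in the 9 CD4 T libraries with a median of 6.68, and 0.0 to 0.51 in B cells (-6.12 ± 0.90, adjusted p = 7.78e-05). Kcnip2, which encodes a calcium-binding partner of Kcnd channels, had 4.20 to 15.0 TPM in CD4 T and at most 0.21 in B cells (-6.04 ± 0.56, adjusted p = 9e-07). Neither overlapped between the lineages. Kcnmb4 (-2.55 ± 0.70), Kcnh3 (-5.51 ± 1.06) and Kcnk7 (-2.95 ± 0.76) were lower as well, with overlapping values. Kcnf1 was called lower (-6.65 ± 1.59), with 7.57 TPM in ConA and at most 0.66 in the other CD4 T libraries. Limma did not call it (adjusted p = 0.131), and without splenic B and ConA the value was -4.06. The last 3 calls, Kcns1 (higher) and Kcnc1 and Kcnmb1 (lower), were of members under 1 TPM on average on both sides.

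Higher in B cells was the modifier gene Kcng1 (6.62 ± 0.95, adjusted p = 6.15e-05, with 0.25 to 14.9 TPM against at most 0.18). Kcnip4, a partner gene of Kcnd channels, was higher by 1.54 ± 0.34 (1.74 ± 1.01 against 0.61 ± 0.13 TPM, adjusted p = 0.00183). Kcnk5 (1.41 ± 0.55, adjusted p = 0.0468) and Kcnq5 (1.18 ± 0.45, adjusted p = 0.0395) lay close to the threshold and lost their calls in 12 and 7 alternatives, with adjusted p up to 0.0904 and 0.075. Kcnk13 was called (3.86 ± 1.13, adjusted p = 0.0113), but without the aCD40+IL4 culture the value was 0.79 (adjusted p = 0.375), and neither DESeq2 nor limma called it (adjusted p = 0.397 and 0.285).

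Within B cells, single libraries were compared by size and not by test. A member counted when it lay 1 or more log2(TPM + 1) units above or below all comparison libraries, with 5 TPM or more on the higher side. Splenic B cells stood apart from the 6 activated cultures at 2 members, both higher (2.89% of 20163 genes), and at none lower (1.37%). Kcng1 had 14.9 TPM (95% counting interval 14.2 to 15.7) against 0.25 to 3.82, and Kcnj10, the astrocyte channel gene, 6.40 (6.09 to 6.72) against 0.02 to 0.12. Astrocyte markers (Gfap, Aqp4, Slc1a2 and Aldh1l1) summed to 0.8 TPM in splenic B cells, and macrophage markers (Adgre1, Csf1r and Cd68) to 127 TPM against 9.9 to 47.2 in the activated cultures. Whether these values and the Kcnj10 level are linked was not tested. Kcnk5 was also highest in splenic B (34.0 TPM), with 7.66 to 20.1 in the activated cultures, and did not meet the rule. Kcnj16, the partner of Kcnj10 in heteromeric channels, had 4.67 TPM in splenic B cells and at most 0.06 in the cultures, just under the 5 TPM minimum.

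Comparing each activated culture with the other 5 was chosen after their values had been seen. Kcnk13, a tandem-pore gene best known from microglia, had 36.2 TPM (34.7 to 37.7) in the aCD40+IL4 culture and 0.32, 0.24, 0.20, 0.23 and 0.19 in the LPS, LPS+IL4, LPS+IL21, dextran and aBCD180 cultures. That was also above its levels in brain, which were 9.03, 20.6 and 8.15 TPM in putamen, medulla and cortex. The other IL4 culture, LPS+IL4, did not share it. Kcnk13 was the only member higher in aCD40+IL4 by the rule (0.848% of genes), and none was lower (0.744%). Kcnn4 was the only one higher in LPS+IL4 (1.83%, with none lower beside 1.26%), with 78.4 TPM (76.6 to 80.2) against 2.52 to 32.6. The 3 erythroid markers summed to 0.4 TPM in LPS+IL4 and to 883 to 9664 in the other 5 cultures, and their part in these values was not tested. No member stood apart in the other 4 cultures, where few genes did: 0.0496% were higher and 0.0% lower in LPS, 0.436% and 0.203% in LPS+IL21, 0.0149% and 0.342% in the dextran culture, and 0.347% and 0.0942% in aBCD180. Kcnq5 held a middling level in all activated B cultures (4.76 to 9.69 TPM).

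CH12 differed from the 7 primary B libraries at 2 members. Kcnk6 was higher (14.8 against 2.51 to 6.71 TPM, 3.25% of genes), and Kcna3 lower (no count against 11.4 to 58.2 TPM, 1.28%). CH12 also had 4.75 TPM of Kcnh2, against at most 0.51 in primary B cells. ConA-activated CD4+ cells stood apart from the other 8 CD4 T libraries at 2 members, both higher (1.44% of genes): the modifier gene Kcnf1 with 7.57 TPM (7.31 to 7.84) against 0.04 to 0.66, and Kcnk7 with 8.64 (8.05 to 9.26) against 0.54 to 3.28. No member was lower, beside 5.03% of genes. ConA, CH12, splenic B and LPS+IL4 are also the 4 libraries whose effective lengths have another offset, and its part in the comparisons of single libraries was not tested. Kcnf1 was far higher in sensorimotor cortex (85.0 TPM) and putamen (28.8) than in ConA cells, and reached 4.13 in medulla.

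Brain stood apart from the 19 other libraries at most potassium channel genes. Of 84 members tested, 65 were higher and 4 lower in the 3 brain libraries, beside 27.0% and 26.7% of all 16123 genes. Their median log2 fold change was 6.16 against -0.16. In 60 members every brain value was above every other value (24.3% of genes), and only Kcnn4 had every brain value below (7.44%). Leaving out single libraries gave 64 to 72 calls. These groups are tissues against mostly sorted or cultured cells, so fewer cells of a type and less RNA per cell cannot be told apart. Where other libraries lie near 0 TPM the fitted fold change depends on the prior count, and the levels say more.

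By role, all tested members of the pore families Kcnd (3) and Kcnh (7) were higher in brain, as were the 4 of Kcnma, Kcnt and Kcnu, the 3 of Kcnab and the 4 of Kcnip. Kcnj had 10 of 14 higher and 1 lower, Kcnk 6 of 11 and 1, Kcna 5 of 7 and none, and Kcnn 3 of 4 and 1. The largest log2 fold change was that of the inward rectifier gene Kcnj4 (13.65 ± 0.98, with 239, 1.31 and 154 TPM in putamen, medulla and cortex and at most 0.04 elsewhere). Kcnd2, the main A-type pore gene of dendrites, had 106, 45.7 and 56.4 TPM against at most 0.03 (13.43 ± 0.98). Other large values were those of the silent subunit gene Kcnv1 (13.34 ± 0.90), Kcnj3 (13.26 ± 0.96), which encodes a subunit of G-protein-gated channels, Kcns2 (12.07 ± 0.94), Kcnk9 (11.37 ± 0.86), Kcna1 (11.05 ± 1.46), Kcna6 (10.78 ± 1.28), Kcna4 (10.29 ± 1.16), Kcnq3 (9.92 ± 1.26) and Kcnd3 (9.71 ± 1.06). Adjusted p-values of these members were at most 1.88e-06.

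The 4 members lower in brain were Kcnn4 (-8.56 ± 2.18, adjusted p = 0.00231), Kcnk5 (-3.33 ± 1.01, 1.37 ± 0.69 against 10.6 ± 7.79 TPM, adjusted p = 0.00831), Kcnj1 and Kcnmb3. The last pair was listed at 0.0 TPM in all 3 regions and reached at most 2.84 and 3.12 elsewhere. Kcna3 was not called (-2.62 ± 1.38, adjusted p = 0.115). Of the 15 tested members without a call, Kcng1, Kcnj2 and Kcnk13 had brain means of 14.1, 12.9 and 12.6 TPM but were also present in splenic B cells, basophils or the aCD40+IL4 culture.

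The 3 regions differed widely in their potassium channel genes. Of 64 members with 5 TPM or more in some region, 30 were highest in sensorimotor cortex, 18 in medulla oblongata and 16 in putamen. The matching shares of all genes were not counted, so no preference of the members for a region can be read from these numbers. Only 13 of them (20.3%) varied by less than 1 log2 unit over the regions, whereas 71.4% of 12177 genes at that level did. With 1 library per region there is no test. Ddx3y was present in putamen and medulla (42.2 and 57.5 TPM) and not in cortex (0.09), so these libraries differ in sex-linked RNA as well as in region. Neuron markers (Rbfox3, Snap25, Syt1 and Stmn2) summed to 2320, 3983 and 5677 TPM in putamen, medulla and cortex. Astrocyte markers summed to 1077, 3078 and 1326, and oligodendrocyte markers (among them Mbp and Mog) to 7827, 26943 and 5877. Genes within a list differed, given in the same order of regions. Gfap had 115, 2139 and 159 TPM and Aqp4 50.8, 257 and 47.5. Slc1a2 had 845, 589 and 1028, and Aldh1l1 65.9, 93.8 and 91.5. Rbfox3 (239, 123 and 353) and Syt1 (366, 146 and 829) were lowest in medulla. Snap25 (1565, 3190 and 4091) and Stmn2 (150, 524 and 404) were lowest in putamen. The part of cell makeup in the values below was not tested.

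Medulla had 9 members higher than both other regions and 13 lower by the size rule (3.31% and 2.54% of genes). The gaps on the lower side were the widest among the regions. Kcnj4 had 1.31 TPM against 239 in putamen and 154 in cortex, and Kcnh3 1.53 against 138 and 153. Kcnh4, a close relative of Kcnh3, had 0.25 TPM against 23.1 and 11.7, while Kcnh2 of the same family went the other way, with 103 TPM against 20.7 and 22.8. Kcnv1 (1.89 against 32.5 and 81.6), Kcnip2 (21.3 against 399 and 182), Kcnf1 (4.13 against 28.8 and 85.0) and Kcnq5 (6.88 against 42.5 and 44.3) were low in medulla as well, with others such as Kcnh1, Kcnk2, Kcnmb4, Kcnq3 and Kcns2. Higher there were the glial pair Kcnj10 (611 TPM against 147 in putamen and 247 in cortex) and Kcnj16 (86.6 against 12.1 and 29.1). Of neuronal genes, the modifier gene Kcng4 had 46.5 TPM against 2.01 and 11.4, and Kcnk9, an acid-sensitive background channel gene, had 50.1 against 9.76 and 22.9. Kcnj14, Kcnk13 and Kcns3 were higher as well.

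Putamen, a part of the striatum, had 7 members higher (2.57% of genes) and 17 lower (1.5%). Kcnab1, a beta subunit gene, had 415 TPM, against 86.3 in medulla and 67.0 in cortex. The Kcna partners Kcna4 (40.6 against 7.20 and 8.12) and Kcna5 (35.3 against 6.22 and 2.06) were higher there too. Kcnip2 (399 TPM), the inward rectifier gene Kcnj2 (26 against 4.84 and 7.71), Kcnk2 (128 against 21.1 and 44.4) and Kcnn3 (15.7 against 6.61 and 4.53) made up the rest. Fast-channel genes were lower in putamen than in both other regions: Kcnc1 had 44.7 TPM against 155 and 122, Kcnc2 4.42 against 29.9 and 44.6, and Kcnc4 9.51 against 74.4 and 51.6. Kcnab3 was lower by the widest margin, with 11.3 against 112 and 179, the reverse of Kcnab1. G-protein-gated Kcnj3 and Kcnj6 and the background channel genes Kcnk3, Kcnk4, Kcnk9 and Kcnk12 were also lower, with Kcng2, Kcng4, Kcnip1, Kcnj16 and Kcns3.

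Sensorimotor cortex had 12 members higher (1.75% of genes) and 2 lower (0.794%). Of the G-protein-gated inward rectifiers, 3 were higher, while Kcnj5 was under 1 TPM in every region: Kcnj3 had 74.7 TPM against 9.51 in putamen and 33.0 in medulla, Kcnj6 41.6 against 3.48 and 9.85, and Kcnj9 147 against 26.9 and 31.2. From the Kcnh family Kcnh1 (55.8 against 24.6 and 9.69), Kcnh5 (34.8 against 8.22 and 9.78) and Kcnh7 (39.8 against 4.15 and 6.33) were higher. Exons of Kcnh7 overlap those of Gca on the other strand by 696 bases, and exons of Kcnk4, also higher in cortex (26.1 against 2.05 and 7.82), overlap Catsperz on the same strand by 587, so their counts are uncertain. The silent subunit genes Kcnf1, Kcns1 (35.0 against 5.89 and 4.02) and Kcnv1 joined them, as did Kcnmb4 (179 against 77.03 and 25.1) and the sodium-activated Kcnt2. Lower in cortex were Kcna5 and the auxiliary gene Kcne1l (4.89 against 24.8 and 23.5). Among members with like levels in the 3 regions were Kcna3, Kcnj11 (20.7, 20.3 and 26.7 TPM in putamen, medulla and cortex), Kcnip3 (94.9, 72.9 and 99.3) and Kcnk1 (98.4, 72.5 and 112).

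**Figure D4:**
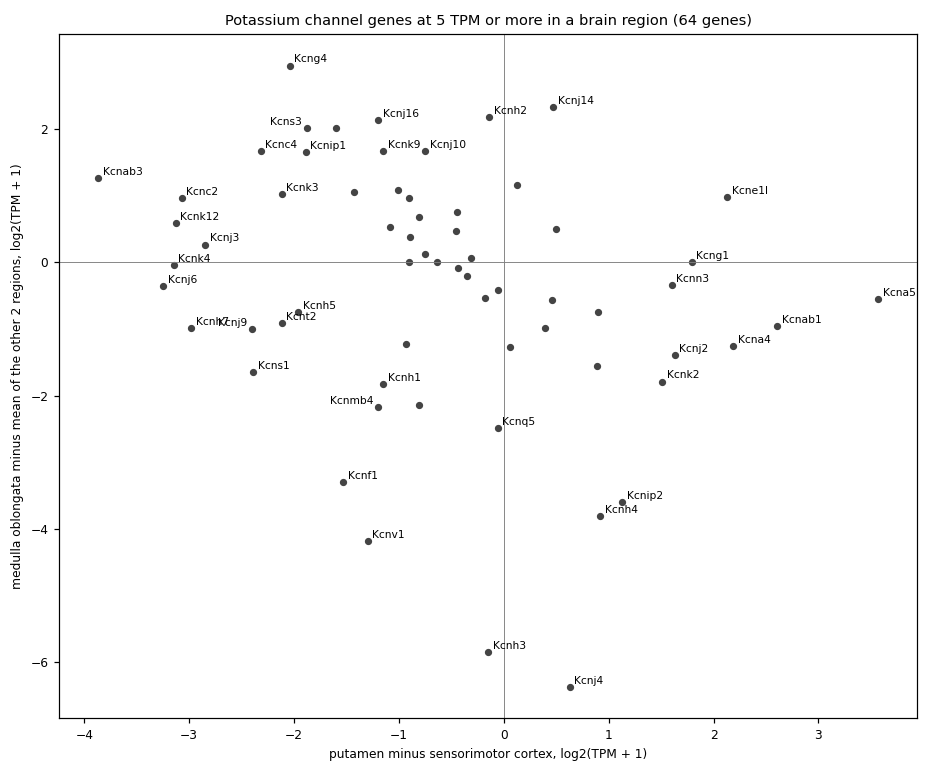
Each point is 1 of the 64 members with 5 TPM or more in a brain region, with putamen minus sensorimotor cortex on the horizontal axis and medulla minus the mean of the other 2 regions on the vertical axis, both in log2(TPM + 1). Kcnj4 and Kcnh3 lie lowest at -6.38 and -5.85, Kcng4 highest at 2.96, Kcna5 farthest to the right at 3.57 and Kcnab3 farthest to the left at -3.87.

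Basophils and back skin were compared by the same rule with a difference of at least 2 log2 units. Basophils stood apart from the 16 primary lymphocyte libraries at Kcne3 and Kcnj2, both higher (2.18% of genes), and at no member lower (0.456%). Kcne3, an auxiliary subunit gene, had 22.7 TPM (20.8 to 24.7) against at most 0.12, and at most 0.49 in any other library. Kcnj2, the strong inward rectifier gene, had 24.2 (23.3 to 25.1) against at most 0.85, with 26 in putamen and 5.20 in skin. Basophils also had Kcnab2 (172 TPM), Kcnn4 (47.2), Kcna3 (36.4) and Kcnk5 (13.8). The basophil library held 34493 TPM of 5 basophil markers, 2109 of 3 neutrophil markers (S100a8, S100a9 and Ngp) and 350 of 3 macrophage markers. The 3 platelet markers summed to 983 TPM, nearly all from Itga2b (982), with 1.02 of Pf4 and 0.04 of Ppbp. Of the neutrophil markers, Ngp had 6.56 TPM. Whether other cells were present, and their part in the 2 members, was not tested.

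Back skin differed from all 21 other libraries at 4 members. Kcnk16, a tandem-pore gene best known from the endocrine pancreas, had 20.7 TPM (18.8 to 22.7) against at most 0.06. Kcne1, whose protein joins the Kcnq1 pore in heart and inner ear, had 18.0 (17.1 to 18.97) against at most 0.13, and Kcnq1 itself 5.49 against at most 0.30. These 3 were higher, beside 3.96% of genes. Exons of Kcnq1 overlap those of its antisense gene by 121 bases. Kcnab2 was lower, with 4.56 TPM (4.13 to 5.02) against 37.5 to 501 (0.134% of genes). Other members leading in skin were Kcnk6 (29.0 TPM, within the range of T cells, which reached 34.0 in Tfr MUT), Kcnk2 (15.0), Kcnk7 (12.5) and Kcnh1 (7.79). Skin held 6547 TPM of keratinocyte, 4426 of adipocyte, 4132 of skeletal muscle and 2244 of fibroblast markers (3, 3, 4 and 3 genes), so these levels cannot be assigned to a cell type here.

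**Figure D5:**
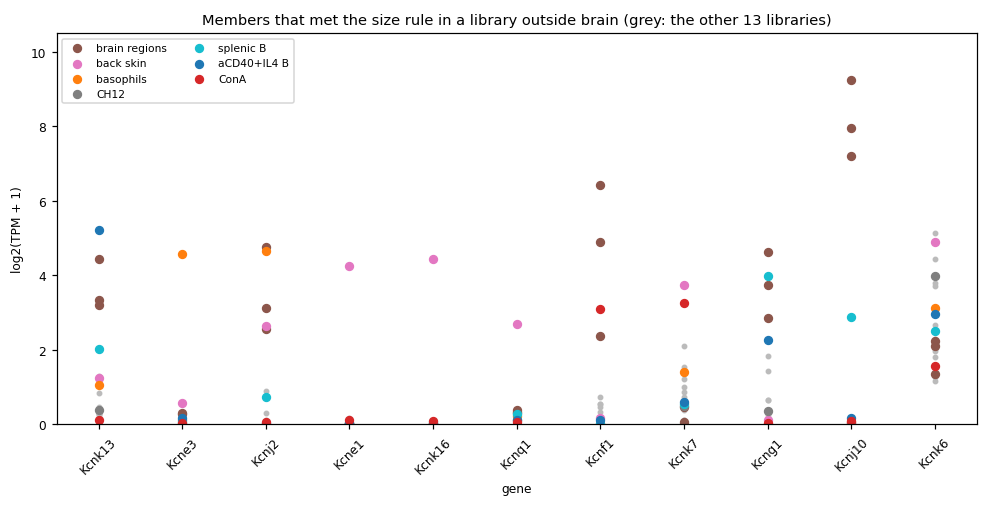
Levels as log2(TPM + 1) of 11 members that met the size rule in a library outside brain, with 1 point per library and the other 13 libraries in grey. Kcnk13 is highest in aCD40+IL4 B cells (36.2 TPM), Kcne3 in basophils, and Kcne1, Kcnk16 and Kcnq1 in back skin, while Kcnj2, Kcnf1, Kcng1 and Kcnj10 also reach comparable or higher levels in brain.

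Genes that work with these channels were read from lists in the same fits, beside the shares of all genes called: 27.0% higher and 26.7% lower in brain, and 23.9% and 22.5% in B against CD4 T cells. Of 15 channel partners 14 were tested in brain and 13 were higher, among them Dpp6 (11.79 ± 1.02) and Dpp10 (11.15 ± 1.07), which join Kcnd pores with Kcnip proteins, and Lgi1 (11.29 ± 1.28) and Cntnap2 (10.62 ± 1.28), which act at Kcna channels. Dlg4, a scaffold gene, was higher in brain (4.53 ± 0.93) and lower in B than in CD4 T cells (-4.96 ± 0.49, 1.08 against 34.3 TPM). Of 7 sodium pump genes 5 of 6 tested were higher in brain and none lower, and 4 of 5 were lower in B than in CD4 T cells. Of 27 other cation channel genes 18 of 26 were higher in brain and 1, Scn4a, lower.

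In the calcium entry list all 18 genes were tested in each comparison. B cells had 3 higher and 8 lower than CD4 T cells. Lower were, among others, the calcium entry channel genes Orai1 (-1.36 ± 0.26) and Orai2 (-1.95 ± 0.50) and the sensor gene Stim1 (-1.22 ± 0.17). Orai3, of the same channel family, went the other way (0.76 ± 0.19, 46.2 against 29.0 TPM). The other 2 higher genes were Itpr1 (1.14 ± 0.14) and Ppp3ca (1.17 ± 0.23). In Tfh 4 were higher and 3 lower than in CD4+, in non-Tfh 2 and 0, and in Tfr 5 and 4, beside 15.3% and 11.2%, 3.23% and 0.62%, and 16.8% and 13.6% of all genes. Atp2b4, a calcium pump gene, was higher in all 3 (4.05 ± 0.19 in Tfh, 3.59 ± 0.19 in non-Tfh and 4.34 ± 0.19 in Tfr). Of the other cation channel genes, 18 were tested in these cells. Against CD4+, 5 were higher in Tfh, 0 in non-Tfh and 6 in Tfr, and 1 was higher in Tfh than in non-Tfh (4.03% of all genes). None was lower in these comparisons. Among them Cacna1d, a calcium channel gene, had 34.8 and 14.4 (MUT) TPM in Tfh, 6.59 and 5.21 in Tfr, and at most 0.82 in non-Tfh and CD4+. It was higher in Tfh than in non-Tfh by 5.65 ± 0.59 (adjusted p = 0.0106).

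Short motifs were counted on both strands in the 250 bases before the RefSeq start of 69 members and of 17491 protein-coding genes. The letters GGACAGC, part of the element bound by the neuronal gene repressor REST, were present in 9 members (13%) against 5.43% of all promoters. Those members were Kcne1l, Kcne3, Kcne4, Kcnh6, Kcnip3, Kcnj4, Kcnj5, Kcnk1 and Kcnk10. The letters TTCAGCACC, another part of that element, were present in 1 member (1.45% against 0.314%). TGANTCA, read by AP-1, was found in 4.35% against 6.18%, GGAAA, the core read by NFAT, in 49.3% against 54.9%, and the E box CACGTG in 5.8% against 6.65%. These 5 motifs were all that were searched, and a match describes the letters only. The median GC content of these windows was 58.8% in members and 55.2% in all protein-coding promoters. Its part in the motif shares was not tested.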

How the data were processed

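RNA of 22 mouse libraries was measured by poly(A) RNA-Seq, per the labels' protocols. Per the file headers, the authors deposited for each gene an expected count (an estimate in which shared reads are divided among genes, not normalized), a TPM and an FPKM, in the layout of RSEM. The TPM deposited by the authors sum to the same total in each library, and the deposited FPKM values were not used. The submitters' processing notes name bedtools, RSEM, STAR, CASAVA 1.8.2 and the build mm10. Order, settings and strand handling are not given in the sources used here. Expected counts that were not whole were rounded before fitting.

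Members and lists were chosen with earlier results of these data known. Count models were fitted in R 4.3.3 by the quasi-likelihood test of edgeR 4.0.16, with TMM scaling and filterByExpr; p-values were adjusted by Benjamini-Hochberg across every gene tested, with a threshold of 0.05. The code was checked on simulated data. The 8 sorted and CD4+ libraries were fitted with population and MUT as terms, the others by lineage or by brain. Comparisons of 1 library used a difference in log2(TPM + 1), with a pseudocount of 1, of at least 1 (2 for basophils and skin) from every comparison library and at least 5 TPM on the higher side. Counting intervals are exact 95% Poisson intervals and cover counting error only. Named were Kcna3 and Kcnn4, up to 12 members per direction past the threshold with a mean of at least 1 TPM on the higher side, members that met the size rule, and the leading members of subfamilies and libraries. A few others are given to describe a family or a neighbour, chosen after their values were seen.

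Alternatives tried were DESeq2 1.42.0, no filter, RLE size factors, limma 3.58.1 on log2(TPM + 1), other terms and library sets, each library left out in turn, TMM-scaled CPM, a pseudocount of 0.1, TPM minimums of 1 and 10, and the mean of the comparison libraries. Exons are from GENCODE vM21, and gene positions and promoters from RefSeq (GRCm38.p6), whose promoter set held 69 members. Effective lengths were computed with another offset (49 bases) in 4 libraries, namely CH12, ConA, splenic B and LPS+IL4 B, and no member was at 0 in those 4 alone. Figures were drawn with matplotlib 3.10.9, and tables made with scipy 1.17.1, numpy 2.4.6 and pandas 2.3.3. The values of some members are not reported here.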

Additional observations from a re-analysis of the deposited data

Results flagged for a closer look

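Members with at least 5 TPM in a library were searched for a library far from all others, among the 6 activated B cultures and the 9 CD4 T libraries. This was done on 20 sets of values, of which 3 held such a library. Chance flags about 1 in 20 sets of like libraries chosen without regard to their values. The sets here hold different cultures or populations, so that rate does not apply to them. Kcnk13 and Kcnf1 also reached 5 TPM only through the library in question. Kcnk13 in the aCD40+IL4 culture had 36.17 TPM, and the nearest of the other 5 cultures had 0.32. On the scale of TMM-scaled CPM the values were 52.1 against 0.3 to 0.4. Kcnf1 in ConA cells had 7.57 TPM, and the nearest of the other 8 CD4 T libraries 0.66 (28.6 against 0.1 to 1.4 TMM-scaled CPM). Kcnn4 in ConA cells was the lowest of the 9 CD4 T libraries with 179.81 TPM, the nearest having 270.38. That last gap was not seen in TMM-scaled CPM, where ConA had 275 and the others 197 to 340. Over all 12437 genes tested in the lineage comparison, the median difference of ConA from the other CD4 T libraries was -0.39 log2 units in TPM and 0.28 in TMM-scaled CPM.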

How the results depend on the processing

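No named call changed its direction in the settings run. Fits in which a named member was not tested are left out of the next figures. For the named members, 974 of the fits under other settings kept the call and 76 did not, most of the latter with 1 CD4+ or non-Tfh library left out. Member counts moved by over 1.5 times in these cases. Leaving out 1 library gave 5 to 18 calls for Tfh against CD4+ (11 in the main design), 0 to 7 for non-Tfh (5), 6 to 20 for Tfr (12) and 0 to 14 for Tfh against non-Tfh (3), with a population of 1 library then assumed to vary like the others. The ranges were 0 to 0 for the MUT label, 15 to 23 for B against CD4 T (19) and 64 to 72 for brain (69). Tfh against non-Tfh gave 5 without a filter, 11 by DESeq2, 8 by limma and 7 with population as the only term, and non-Tfh against CD4+ 10 by DESeq2. Without Tfh MUT and Tfr, a choice made after seeing the data, the counts were 18, 13, 22, 13 and, for the MUT label, 1. With the mean of the comparison libraries, the size rule gave 40 members in putamen (24 in the main design), 29 in cortex (14), 4 in splenic B (2), 5 in ConA (2) and 12 in skin (4). A minimum of 1 TPM gave 5 and of 10 TPM 1 in splenic B, TMM-scaled CPM gave 4 there, and a minimum of 10 TPM gave 0 in ConA. The cause of these moves was not tested. No paired analysis was possible because the labels give no replicate numbers and each group has 1 library. Levels under about 1 TPM rest on few counts and limit what can be said of many members in lymphocytes.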
